A study of Rattus norvegicus with 12 samples.

Results

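The adenylyl cyclase genes Adcy1, Adcy2, Adcy3, Adcy5, Adcy6, Adcy7, Adcy8 and Adcy9 were followed in RNA sequencing of the periaqueductal grey of the rat, the midbrain region around the aqueduct through which opioids act on descending pain control. The set was chosen by symbol and holds 8 of the 24540 genes tested, out of 41596 genes in all. All 8 passed the filter of a mean of at least 0.5 TPM (the deposited abundance unit, a share of the library scaled by transcript length) over the 12 libraries. None of the 8 passed the test between the groups, and their summed level was 337.59 ± 16.5 TPM in morphine-sired rats and 337.53 ± 18.1 TPM in saline-sired rats (SD, n = 6 each). Adcy5 led the family and Adcy7 was lowest in every library, and Adcy1 varied most from library to library.

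The morphine-sired group held 6 male Sprague Dawley rats fathered by males given morphine, chronically according to the series title, and the saline-sired group held 6 males of the same strain fathered by males given saline. The labels give the offspring no treatment of their own. Age, the sires' dose, litter and sire identity are not stated by the sources used here. The p-values therefore measure the spread between these 12 samples, some of which may share a sire. PolyA RNA came from dissected tissue frozen on dry ice.

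Adenylyl cyclases make the second messenger cAMP from ATP. The stimulatory G protein alpha subunit activates the membrane-bound forms, whereas opioid receptors act through inhibitory Gi and Go proteins, which lower cAMP production. The forms differ in their other regulators: Adcy1, Adcy3 and Adcy8 are classed as stimulated by calcium and calmodulin, Adcy2 and Adcy7 respond to G protein beta-gamma subunits, Adcy5 and Adcy6 are inhibited by calcium, and Adcy9 is largely insensitive to forskolin. A rise of cyclase activity during prolonged opioid exposure, seen on withdrawal, is a classical feature of opioid-treated cells.

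Depth was 4.39 to 6.03 gigabases per library, and Pearson's r between libraries was 0.9408 to 0.9728 over 66 pairs. The neuronal markers summed to between 5401 and 7430 TPM in morphine-sired libraries and between 5220 and 6721 TPM in saline-sired libraries, which goes with brain tissue. The marker lists held no gene that defines the periaqueductal grey alone. Markers of adjoining nuclei and of the choroid plexus set some libraries apart. Chat, the acetylcholine-synthesizing enzyme of motor neurons, was at 1.15 TPM in morphine-sired 1, 0.0955 TPM in saline-sired 1 and 0.569 TPM in saline-sired 6, and at 17.1 to 36.4 TPM in the other 9 libraries. Tph2, the serotonin-synthesizing enzyme of raphe neurons, was also below 1 TPM in these 3 libraries. In the other 9 it ran from 1.15 TPM in morphine-sired 6 to 445 TPM in saline-sired 2, with 3.00 and 3.05 TPM in morphine-sired 4 and 5. Tph2 thus did not set these 3 libraries apart as Chat did. Gabra6, a receptor subunit of cerebellar granule cells, reached 37.6 TPM in saline-sired 2 and at most 0.316 TPM elsewhere. Ttr, the main choroid plexus transcript, was at 1756 TPM in morphine-sired 2 and 413 TPM in saline-sired 2, and at 0.286 to 62.5 TPM in the other 10.

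The levels of the 8 genes, compared per transcript length, spread from a mean of 95.6 TPM for Adcy5 to 11.4 TPM for Adcy7 over the 12 libraries. Adcy5 lay above Adcy2 in 12 of 12 libraries, Adcy3 above Adcy9 in 12 of 12, and Adcy8 above Adcy7 in 12 of 12, with no overlap of their ranges. The other neighbours in this order overlapped. Adcy2 lay above Adcy1 in 11 libraries, Adcy1 above Adcy3 in 9, Adcy9 above Adcy6 in 9 and Adcy6 above Adcy8 in 7. The calcium-inhibited pair held 35.4% ± 1.3 of the summed level in morphine-sired rats and 34.8% ± 1.60 in saline-sired rats. The calcium-stimulated trio held 31.3% ± 2.99 and 32.2% ± 3.40 in morphine-sired and saline-sired rats, the beta-gamma-stimulated pair 25.1% ± 2.12 and 24.3% ± 2.66, and Adcy9 8.25% ± 1.56 and 8.76% ± 1.60 (SD, n = 6 each). The class shares thus differed between groups by less than 1 SD.

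**Figure D1:**
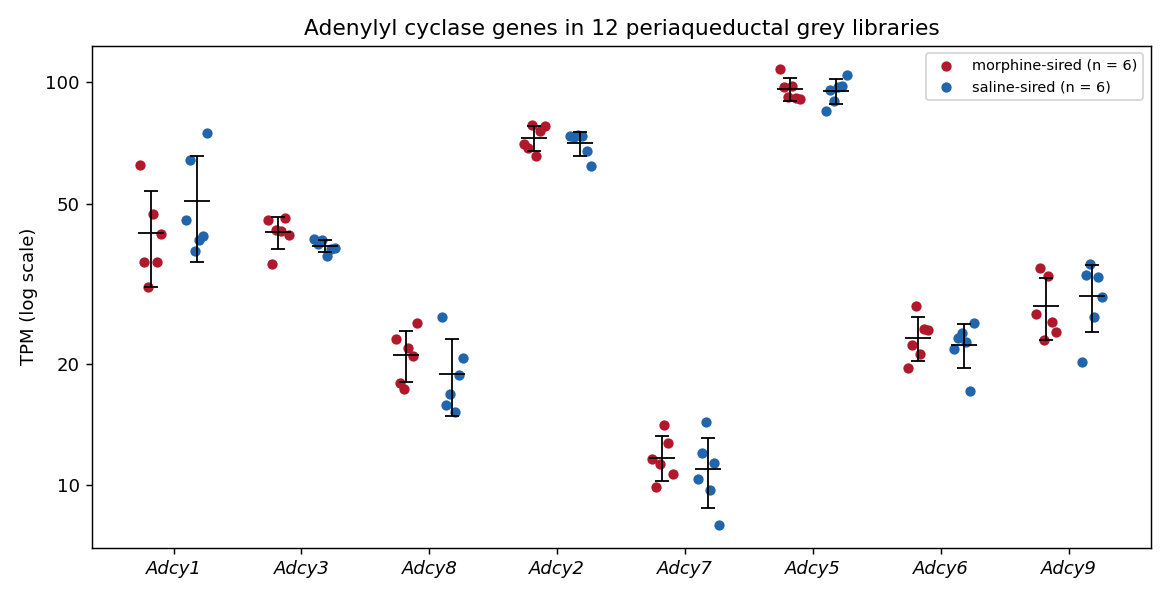
Level of each adenylyl cyclase gene in TPM (vertical log axis), with 1 point per library, morphine-sired on the left of each pair and saline-sired on the right; bars show mean and SD (n = 6 each). Adcy5 lies highest at 84.9 to 108 TPM, Adcy7 lowest at 7.98 to 14.4 TPM, and the groups overlap for all 8 genes.

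Between the groups, 0 of the 8 genes passed limma's test at a Benjamini-Hochberg adjusted p of 0.05, with an adjusted p of 0.9998 for each, where 0% of the 24540 genes passed. At an unadjusted p under 0.05 the count was also 0 of 8 by limma, against 790 genes or 3.22% of all genes tested (1.5% higher and 1.72% lower). limma-voom on estimated reads called 0 of all genes and gave 745 at an unadjusted p under 0.05. Of the 8 genes, 6 had a higher mean and 2 a lower mean in morphine-sired rats, where 49.2% of all genes had a higher and 50.8% a lower one. Their median log2 difference, morphine-sired minus saline-sired on the scale of log2(TPM + 1), was 0.05, and that of all genes tested was -0.0022. In bulk tissue, fewer cells of a type and less RNA per cell cannot be told apart.

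**Figure D2:**
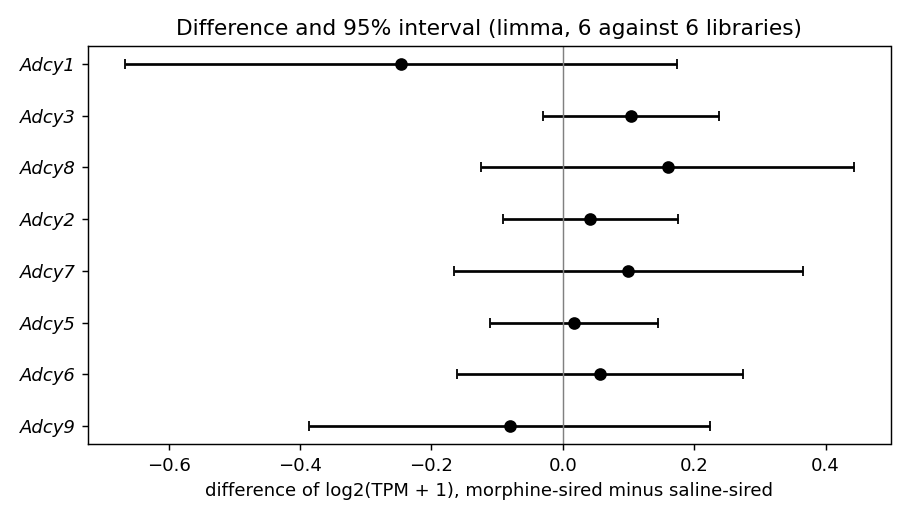
Morphine-sired minus saline-sired difference on the log2(TPM + 1) scale (horizontal axis) for each adenylyl cyclase gene, as limma's estimate (point) with its 95% interval (bar), 6 against 6 libraries. All 8 intervals include 0; the interval of Adcy1 is the widest, from -0.67 to 0.17, and that of Adcy5 runs from -0.11 to 0.15.

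Adcy1, a calcium and calmodulin-stimulated cyclase of neurons, lies on chromosome 14 (87312203 to 87421659, plus strand, Rnor_6.0) with 1 annotated transcript of 20 exons. Its lowest, median and highest levels were 31.1, 38.9 and 62.4 TPM in morphine-sired libraries, against 38.2, 43.5 and 74.7 TPM in saline-sired libraries. Morphine-sired 1 was high at 62.4 TPM, and saline-sired 6 and saline-sired 2 at 74.7 and 64.1 TPM, while the other 9 libraries ran from 31.1 to 47.1 TPM and the groups overlapped. The means were 42.4 ± 11.3 TPM in morphine-sired rats and 50.7 ± 15.0 TPM in saline-sired rats (SD, n = 6 each), with a log2 difference of -0.25 ± 0.19 (limma SE, unadjusted p 0.227). Leaving out saline-sired 6, a choice made by its value, brought the difference to -0.13 ± 0.18. Without the 3 libraries low in Chat the difference was -0.24 ± 0.17. Its coefficient of variation over the 12 libraries was 28.8%, against 6.70% to 18.1% for the other 7 genes, and its SD on the log2 scale lay at the 89.3 percentile of genes of at least 10 TPM.

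Adcy3, also placed in the calcium-stimulated class and known for its part in olfactory signalling and primary cilia, lies on chromosome 6 (28570369 to 28650148, plus strand). Levels were 35.4, 42.9 and 46.0 TPM (lowest, median, highest) in morphine-sired libraries, against 37.1, 39.3 and 40.9 TPM in saline-sired libraries. The morphine-sired libraries other than number 2 stood above all 6 saline-sired ones, and morphine-sired 2 stood below them all. The means of 42.5 ± 3.79 TPM in morphine-sired and 39.3 ± 1.40 TPM in saline-sired rats (SD, n = 6 each) gave a log2 difference of 0.10 ± 0.06 (limma unadjusted p 0.115). Leaving out morphine-sired 2, which is a choice made by its value, gave 0.15 ± 0.05 (limma unadjusted p 0.00573, adjusted p 0.819). In that fit 1473 of all genes tested had a limma unadjusted p under 0.05, against 790 with all 12 libraries. Morphine-sired 2, the highest in Ttr, also had the highest summed oligodendrocyte markers (21081 TPM) and the lowest ependymal ones (12.3 TPM). With the oligodendrocyte score as a term in the fit the log2 difference was 0.06 ± 0.05 (limma unadjusted p 0.267), and with the serotonergic score 0.09 ± 0.06 (limma unadjusted p 0.188). Cenpo, at a mean of 1.19 TPM, overlaps Adcy3 on the opposite strand.

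Adcy8, the other strongly calcium-stimulated neuronal cyclase, lies on chromosome 7 (105353913 to 105593248, minus strand). Its levels were 17.3, 21.4 and 25.4 TPM in morphine-sired libraries, against 15.2, 17.9 and 26.2 TPM in saline-sired libraries (lowest, median, highest). Saline-sired 1 was the highest of all 12 at 26.2 TPM, followed by morphine-sired 6, and the groups overlapped. The means were 21.1 ± 3.05 TPM in morphine-sired and 18.9 ± 4.08 TPM in saline-sired rats (SD, n = 6 each), and the log2 difference was 0.16 ± 0.13 (limma unadjusted p 0.246). Without saline-sired 1, a choice made by its value, the difference was 0.25 ± 0.11 (limma unadjusted p 0.0397, adjusted p 0.99986). Without the 3 libraries low in Chat the difference was 0.29 ± 0.12 (limma unadjusted p 0.0341), which did not pass the adjusted p. With the serotonergic score as a term it was 0.08 ± 0.10 (limma unadjusted p 0.439).

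Adcy2, a beta-gamma-responsive cyclase abundant in brain, lies on chromosome 1 (37507276 to 37698390, plus strand) with 1 annotated transcript of 21 exons. It stood at 65.7, 73.0 and 78.4 TPM in morphine-sired libraries, against 62.0, 73.4 and 73.8 TPM in saline-sired libraries (lowest, median, highest). The medians were nearly equal, with saline-sired 6 lowest and morphine-sired 3 highest. Adcy2 averaged 72.7 ± 5.33 TPM in morphine-sired and 70.6 ± 4.87 TPM in saline-sired rats (SD, n = 6 each), and the log2 difference was 0.04 ± 0.06 (limma unadjusted p 0.506). Adcy7, the other beta-gamma-responsive form, which blood and immune cells also express, lies on chromosome 19 (19702056 to 19763215, minus strand). It ran through 9.91, 11.5 and 14.1 TPM in morphine-sired libraries and 7.98, 10.9 and 14.4 TPM in saline-sired libraries (lowest, median, highest). Both extremes of Adcy7 were saline-sired libraries, number 6 at the bottom and number 3 at the top. Adcy7 averaged 11.7 ± 1.499 TPM in morphine-sired and 11.0 ± 2.17 TPM in saline-sired rats (SD, n = 6 each), and the log2 difference was 0.10 ± 0.12 (limma unadjusted p 0.432).

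Adcy5, the calcium-inhibited cyclase best known from the striatum, lies on chromosome 11 (68694337 to 68843105, minus strand). It stood at 90.8, 94.6 and 108 TPM in morphine-sired libraries, against 84.9, 96.6 and 104 TPM in saline-sired libraries (lowest, median, highest). Morphine-sired 1 was highest and saline-sired 1 lowest, a span of 1.27-fold over all 12. Adcy5 averaged 96.2 ± 6.55 TPM in morphine-sired and 95.02 ± 6.83 TPM in saline-sired rats (SD, n = 6 each), and the log2 difference was 0.02 ± 0.06 (limma unadjusted p 0.771, 95% interval -0.11 to 0.15). Adcy6, its close relative with wide tissue expression, lies on chromosome 7 (140270692 to 140291772, minus strand). Its values were 19.6, 23.3 and 27.8 TPM in morphine-sired and 17.1, 23.0 and 25.3 TPM in saline-sired libraries (lowest, median, highest). Saline-sired 5 was lowest and morphine-sired 3 highest, with the rest intermixed. Adcy6 averaged 23.3 ± 2.90 TPM in morphine-sired and 22.3 ± 2.81 TPM in saline-sired rats (SD, n = 6 each), and the log2 difference was 0.06 ± 0.10 (limma unadjusted p 0.583). An unnamed locus of 2 exons overlaps each of these genes on the opposite strand, at means of 3.66 TPM for Adcy5 and 5.65 TPM for Adcy6, and no source used here says whether counting used strand.

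Adcy9, the widely expressed form set apart by its low forskolin response, lies on chromosome 10 (11392625 to 11515528, plus strand). Levels were 22.9, 26.0 and 34.7 TPM in morphine-sired libraries, against 20.3, 31.2 and 35.4 TPM in saline-sired libraries (lowest, median, highest). Both groups held libraries above 30 TPM and below 27 TPM. The means were 27.8 ± 4.88 TPM in morphine-sired and 29.6 ± 5.61 TPM in saline-sired rats (SD, n = 6 each), and the log2 difference was -0.08 ± 0.14 (limma unadjusted p 0.575). Of the cyclases outside the set, Adcy4, a beta-gamma-responsive form, was at 2.17 ± 0.298 TPM in morphine-sired and 2.49 ± 0.536 TPM in saline-sired rats, a log2 difference of -0.13 ± 0.12 (limma unadjusted p 0.305, adjusted p 0.9998). Adcy10, the soluble bicarbonate-sensitive cyclase, was at 0.546 ± 0.288 TPM in morphine-sired and 0.333 ± 0.121 TPM in saline-sired rats, below the filter, and was not tested.

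**Figure D3:**
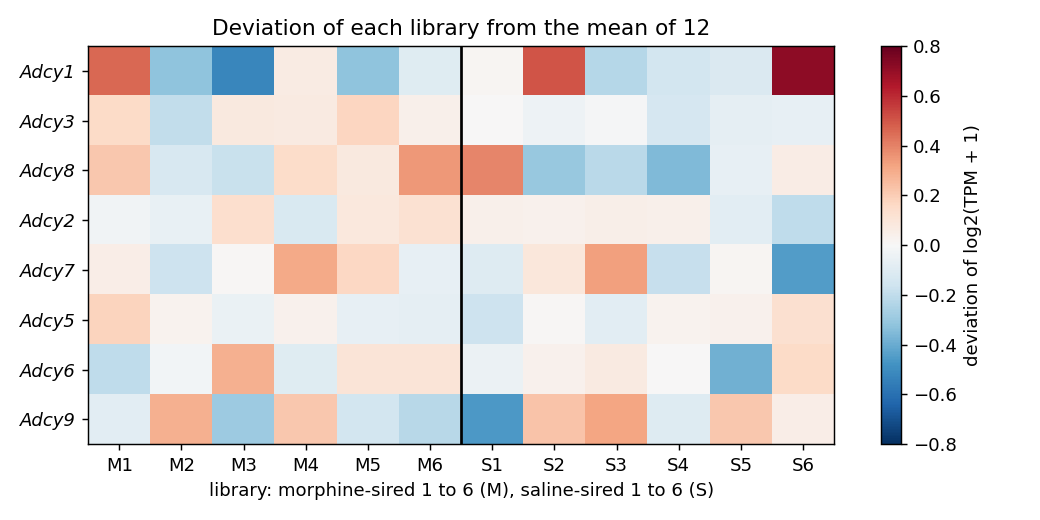
Deviation of log2(TPM + 1) of each adenylyl cyclase gene (rows) in each library (columns, morphine-sired left of the line, saline-sired right) from that gene's mean over the 12 libraries, red above and blue below. Strong colours are seen for Adcy1 in morphine-sired 1 and 3 and saline-sired 2 and 6, for Adcy9 in saline-sired 1 and for Adcy7 in saline-sired 6, while Adcy5 and Adcy2 stay pale.

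For 3 of the genes most of the level sat on transcripts assembled in the series and absent from the annotation: 97.8% of the TPM of Adcy3, 94.9% of Adcy8 and 92.8% of Adcy7. The share was 36.0% for Adcy6, 16.2% for Adcy5, 14.8% for Adcy9 and 0% for Adcy1 and Adcy2. Of the 36 transcripts of the 8 genes that were tested, 0 passed limma's adjusted p (smallest 0.99997) and 3 had an unadjusted p under 0.05, where 0.00198% and 3.77% of the 50419 transcripts tested did. An assembled Adcy3 transcript (MSTRG.20484.4, 22 exons) averaged 27.1 ± 6.04 TPM in morphine-sired and 17.5 ± 7.94 TPM in saline-sired rats (SD, n = 6 each), and the log2 difference was 0.72 ± 0.31 (limma unadjusted p 0.0382). It was the leading Adcy3 transcript in 6 of 6 morphine-sired and 3 of 6 saline-sired libraries. An assembled Adcy7 transcript (MSTRG.11922.3) averaged 6.49 ± 3.48 TPM in morphine-sired and 1.42 ± 1.80 TPM in saline-sired rats, a log2 difference of 1.66 ± 0.64 (limma unadjusted p 0.0241), and was listed at 0 in 4 libraries. Another Adcy7 transcript (MSTRG.11922.2) averaged 0.622 ± 0.503 TPM in morphine-sired and 2.25 ± 2.11 TPM in saline-sired rats, a log2 difference of -0.84 ± 0.36 (limma unadjusted p 0.0378). These transcripts overlap others of the same gene for most of their length, and the leading one changed between libraries: 5 of the 6 Adcy7 transcripts led in at least 1 library, as did 3 of 6 for Adcy3 and for Adcy6. For Adcy8, MSTRG.22454.6 led in 9 libraries and MSTRG.22454.5 in the 3 libraries where the first was listed at 0, which were morphine-sired 2 and 6 and saline-sired 1. Single annotated transcripts led in all 12 libraries for Adcy1, Adcy2, Adcy5 and Adcy9, and that of Adcy9 averaged 22.9 ± 1.06 TPM in morphine-sired and 23.6 ± 3.24 TPM in saline-sired rats (SD, n = 6 each).

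**Figure D4:**
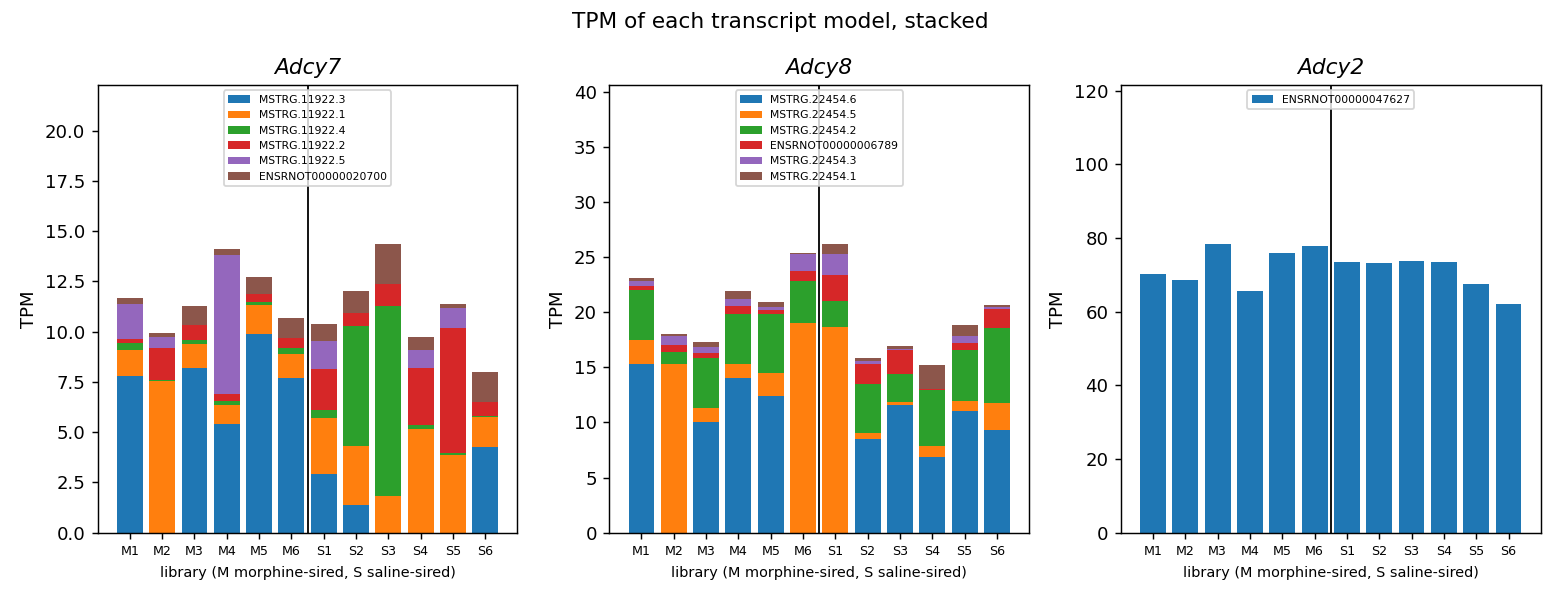
TPM of each transcript (stacked colours) of Adcy7, Adcy8 and Adcy2 in each library, morphine-sired (M) left of the line and saline-sired (S) right. The leading colour changes between libraries for Adcy7, MSTRG.22454.5 replaces MSTRG.22454.6 of Adcy8 in M2, M6 and S1, and Adcy2 has a single transcript at 62.0 to 78.4 TPM.

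An unnamed locus of 1 exon lay 4275 bases past the 3' end of the Adcy1 model on the same strand (chromosome 14, 87425934 to 87429924, Rnor_6.0). It averaged 47.6 ± 11.4 TPM in morphine-sired and 57.6 ± 17.4 TPM in saline-sired rats (SD, n = 6 each). Its level ran alongside that of Adcy1, with a Pearson's r of 0.967 over the 12 libraries, and it too was highest in morphine-sired 1, saline-sired 6 and saline-sired 2. A shorter unnamed locus, which was given no strand, lay 768 bases past Adcy8. This locus averaged 2.09 ± 0.360 TPM in morphine-sired and 2.00 ± 0.602 TPM in saline-sired rats, with a Pearson's r of 0.770 with Adcy8. Whether either locus belongs to the cyclase's own transcript was not tested, and its level was not added to that of the gene.

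Genes whose level was most like that of each cyclase were taken by Pearson's r of log2(TPM + 1) over the 12 libraries among 11938 genes, as a description of libraries that share a dissection. Gabrd, the delta subunit of GABA-A receptors, was closest to Adcy1 (r 0.957), followed by Inpp5a (0.934) and Kcng2 (0.922), a modulatory potassium channel subunit. Gabrd was at 22.1 TPM in morphine-sired 1, and at 41.4 and 22.4 TPM in saline-sired 6 and saline-sired 2, the 3 libraries highest in Adcy1. It was at 10.3 TPM in morphine-sired 4, at 8.21 TPM in saline-sired 1 and between 2.45 and 5.44 TPM in the other 7. Cct5, a chaperonin subunit, was closest to Adcy2 (r 0.926), Tspan33 to Adcy3 (0.949), Plekhd1 to Adcy5 (0.929), and Nat14 to Adcy6 (0.841). For Adcy7 it was Zfp428 (r 0.862), for Adcy8 Unc13b, a synaptic vesicle priming factor (0.900), and for Adcy9 Lrrc8a, a subunit of the volume-regulated anion channel (0.907). Among the 28 pairs of cyclase genes, 0 passed an adjusted p of 0.05 in a permutation test. The smallest p was that of Adcy2 with Adcy5, at a Pearson's r of -0.66 and a Spearman's rho of -0.71 (permutation p 0.0202 and 0.0119, adjusted p 0.429 and 0.334), and r was -0.56 without the 2 libraries farthest from the median.

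**Figure D5:**
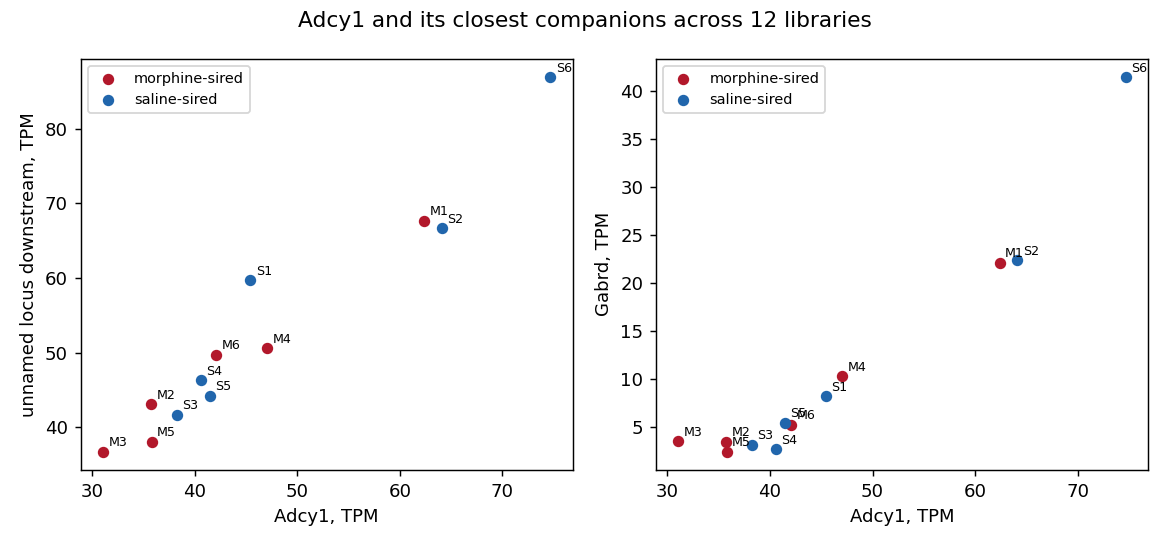
Level of the unnamed locus past the 3' end of Adcy1 (left) and of Gabrd (right), in TPM, against that of Adcy1 in TPM, with 1 point per library (red morphine-sired, blue saline-sired). Both rise with Adcy1, and M1, S2 and S6 lie at the upper right in both panels.

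Each cyclase was set against 12 marker scores of cell types and neighbouring regions, 96 relations in all, and 0 passed an adjusted p of 0.05, by Pearson's r or by Spearman's rho, while 13 had an unadjusted p under 0.05 by Pearson's r. The cholinergic score was used within the 9 libraries that hold Chat. Adcy3 was lower where the oligodendrocyte score was high (r -0.79, rho -0.84, permutation p 0.00246 and 0.00114, adjusted p 0.111 and 0.0538). Without the 2 libraries farthest from the median score, morphine-sired 2 and 3, that r was -0.74, and it was -0.82 within morphine-sired and -0.58 within saline-sired libraries. After scaling TPM by median-ratio size factors, r was -0.71 over all libraries, -0.79 within morphine-sired and -0.21 within saline-sired ones (adjusted permutation p 0.244, and 0.140 for rho). Adcy3 was also higher with higher astrocyte and ependymal scores (r 0.73 and 0.75, rho 0.80 and 0.75, adjusted permutation p for rho 0.0538 and 0.0805). With size factors these r were 0.63 and 0.60 (adjusted permutation p for rho 0.306 and 0.405). Adcy2 was higher with a higher astrocyte score (r 0.73, rho 0.71, adjusted permutation p 0.111 and 0.118). Adcy9 was higher with a higher neuronal score (r 0.73, rho 0.81, permutation p 0.00624 and 0.00214, adjusted p 0.111 and 0.0538, and r 0.83 without 2 libraries). Its libraries above 30 TPM were those where an assembled transcript was high. MSTRG.3420.3 was at 5.53, 6.36 and 7.92 TPM in morphine-sired 2 and 4 and saline-sired 5. MSTRG.3420.4 was at 8.44 TPM in saline-sired 2 and MSTRG.3420.7 at 9.37 TPM in saline-sired 3. The leading annotated transcript ran from 19.2 to 28.6 TPM, highest in saline-sired 6, and its relation with the score was not tested. Adcy8 was lower with a higher serotonergic score (r -0.74, rho -0.73, permutation p 0.00581 and 0.0084, adjusted p 0.111 and 0.0896; r -0.72 without 2 libraries). Adcy1 went with the cerebellar score by rank more than by value (r 0.61, rho 0.82, permutation p 0.0275 and 0.00188, adjusted p 0.203 and 0.0538; r 0.75 without 2 libraries). With size factors, its adjusted permutation p for rho was 0.143, and those of Adcy8 and Adcy9 above were 0.0941 each. The cerebellar score was highest in saline-sired 2 (2.66), morphine-sired 1 (0.21) and saline-sired 6 (0.08), the libraries highest in Adcy1. Gabra6, the granule cell marker of that list, was listed at 0 in morphine-sired 1 and saline-sired 6, as in several other libraries.

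Promoters could be matched for 5 of the 8 genes in the RefSeq table of the GRCr8 build, as 250 bases before to 50 bases after the gene's start. The cAMP response element TGACGTCA, which CREB binds, was in 0 of the 5 on either strand, where 1.83% of 33469 promoters of 300 bases hold it. The shorter TGACG, the first part of that element, was found for Adcy7 and Adcy9 and is in 21.2% of all promoters. The GC box GGGCGG, counted on both strands, was found 7 times for Adcy1, 4 times for Adcy5 and 3 times for Adcy2, was not found for Adcy7 or Adcy9, and is in 33.1% of all promoters. The Adcy1 promoter was 84.7% G and C, at the 99.9 percentile of all promoters, and that of Adcy5 70.7%, where the median was 51.7%. The 100 bases before the start are shown for the gene that varied most between libraries and the one that varied least, with the GC boxes of either strand in capitals (chr14:86125019-86125118, plus strand, and chr11:79123344-79123443, minus strand, GRCr8).
Adcy1: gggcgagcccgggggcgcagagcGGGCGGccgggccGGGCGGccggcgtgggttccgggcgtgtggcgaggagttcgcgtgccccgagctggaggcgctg
Adcy5: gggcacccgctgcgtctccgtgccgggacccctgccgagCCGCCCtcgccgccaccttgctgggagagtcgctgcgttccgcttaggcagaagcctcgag
These matches are a description of the sequence, and no binding was measured.

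The cAMP pathway around the cyclases was described by lists of G protein alpha subunits, phosphodiesterases, protein kinase A subunits, other cAMP effectors, anchoring proteins, cAMP-responsive transcription factors, cyclase regulators and the other 2 cyclases, 70 genes of which 68 were tested. Of these, 0 passed limma's adjusted p and 2 had an unadjusted p under 0.05, near the 3.22% of all genes tested. A higher mean in morphine-sired rats was seen for 30 and a lower one for 38, where 49.2% and 50.8% of all genes had these, and the median log2 difference was -0.01. The 2 genes encode phosphodiesterases, which break down cAMP. Pde1c, which calcium and calmodulin activate, was at 4.31, 5.38 and 6.70 TPM in morphine-sired libraries, against 6.61, 6.69 and 7.14 TPM in saline-sired libraries (lowest, median, highest). The groups overlapped narrowly, and the log2 difference was -0.28 ± 0.09 (limma unadjusted p 0.00917, adjusted p 0.9998). Pde10a, an enzyme best known from the striatum, was at 14.1, 15.9 and 16.8 TPM in morphine-sired libraries, against 15.7, 18.5 and 20.1 TPM in saline-sired libraries, a log2 difference of -0.21 ± 0.07 (limma unadjusted p 0.0128, adjusted p 0.9998). The other genes named by their p were Camk4 (log2 difference -0.24 ± 0.15), Gnai3 (0.09 ± 0.07), Pde4c (-0.16 ± 0.12), Atf1 (0.09 ± 0.08), Creb1 (0.49 ± 0.42) and Akap12 (-0.11 ± 0.09). Creb1 shares its locus with another symbol and is uncertain. By list, 3 of 7 G protein alpha subunits, 6 of 15 phosphodiesterases, 5 of 9 protein kinase A genes, 4 of 6 other effectors, 2 of 10 anchoring proteins, 3 of 7 transcription factors and 7 of 13 cyclase regulators had a higher mean, and the others a lower one.

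Gnao1, which encodes the Go alpha subunit through which opioid receptors signal, was at 162 ± 25.9 TPM in morphine-sired and 166 ± 17.1 TPM in saline-sired rats (SD, n = 6 each), and the log2 difference was -0.04 ± 0.10 (limma adjusted p 0.9998). One assembled transcript in its locus (MSTRG.11866.6, chromosome 19, 11515798 to 11564438, minus strand, Rnor_6.0) was the only 1 of the 50419 transcripts tested that passed, and it is named after its values were seen. Its levels were 5.498, 10.3 and 16.6 TPM in morphine-sired libraries, against 1.10, 1.27 and 2.79 TPM in saline-sired libraries (lowest, median, highest), without overlap. The groups did not overlap for 22 of the 24540 genes tested (0.0896%), and that share was not counted for transcripts. For MSTRG.11866.6 the log2 difference was 2.17 ± 0.23 (limma adjusted p 0.0356). This transcript held 3.69% of the TPM of the locus, which StringTie divided among 7 overlapping transcripts. The call was kept without morphine-sired 2, morphine-sired 6 or saline-sired 5 and lost without any other library, with an adjusted p of 0.0046 to 0.188 over the 12 omissions and a log2 difference of 2.04 to 2.33.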

How the data were processed

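PolyA RNA libraries of the periaqueductal grey of 12 rats were made with an NEBNext Ultra kit after Trizol and column extraction, per the labels' protocols. Per the submitters' processing notes, the build was Rnor_6.0 and the tools were HISAT2 2.2.0, StringTie 2.1.2, DESeq2 1.28.1, SAMtools 1.11, Trimmomatic 0.39 and FastQC 0.11.9, whereas StringTie 1.3.6 wrote the transcript tables per the file headers. Pairing and strand of the reads are not stated by the sources used here. The authors deposited coverage, FPKM and TPM for 76232 transcripts in each library, 41063 annotated and 35169 assembled, and a table of log2 values that matched log2(FPKM + 1) of the annotated transcripts within 4.9e-08. TPM is a share of a library, so abundant transcripts that change shift the rest.

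Gene values are sums of TPM, with assembled transcripts given to a locus of a single symbol. Genes and transcripts with a mean of at least 0.5 TPM were fitted on log2(TPM + 1) in limma 3.58.1 (R 4.3.3), with the sire's treatment alone, two-sided, trended eBayes and Benjamini-Hochberg adjustment over all features; this scale understates changes of low genes. The fit was checked on simulated data with 200 changed genes. It recovered 39.5% of them at a 1.5-fold change of TPM + 1, 71% at 2-fold and 98% at 4-fold. False calls were 3, 8 and 6. The changed genes were drawn at random from all genes tested, so most changes of 1.5-fold would be missed among genes at large. The median SE of all genes tested was 0.14, against 0.06 for Adcy5 to 0.19 for Adcy1 among the cyclases. Recovery was not simulated for the 8 cyclase genes alone. Relations used 100000 permutations (Python 3.11.15, numpy 2.4.6, scipy 1.17.1, pandas 2.3.3), or an exact permutation over 9 libraries for the cholinergic score. Marker scores are mean z-scores of each list. Depth, the bases behind FPKM, came from the ratio of coverage to FPKM. Estimated reads per cyclase gene and library were 785 to 10289, while some single transcripts of these genes were listed at 0. Reads were estimated with a length of 135 bases, inferred from the values. Of the low totals of covered bases, 14.4% lay within 1 base of a multiple of that length, against 2.22% by chance.

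The genes, lists and tests were chosen with earlier results of these data known. Named were all cyclases, the 8 genes of the pathway lists with the smallest p, cyclase transcripts by level, of which those with an unadjusted p under 0.05 or leading a library are given, and the 3 genes most like each cyclase, of which the first, or all 3 for Adcy1, are given. Proteins and a genome sequence were not used here.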

Additional observations from a re-analysis of the deposited data

How the results depend on the processing

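No paired analysis was made, because the labels state no pairing of samples. The sample titles are numbers that fall in consecutive pairs, some within a group and some across the groups. What these numbers stand for is not stated, and whether such samples are related was not tested. For the 8 cyclase genes, 208 recalculated differences were compared with the reported ones. Of these, 200 kept their direction and 8 did not. By adjusted p, or by the p of the exact permutation test, 0 of the 208 passed. The other filters, eBayes without trend and the exact permutation leave the difference itself unchanged, so its direction could not turn there. The same holds for Adcy1 and Adcy2, with 1 transcript each, when annotated transcripts alone are counted. Counting annotated transcripts alone turned Adcy3 (-0.031), Adcy7 (-0.33) and Adcy8 (-0.53), whose annotated transcripts hold under 10% of their TPM, and gave Adcy6 0.37 ± 0.52. Without the 3 libraries low in Chat, Adcy5 was at -0.021 and Adcy7 at -0.013. In that fit 1 gene of all tested passed limma's adjusted p (AABR07044389.1, chromosome 20, 4510034 to 4517128, log2 difference 2.54, adjusted p 0.00159). Leaving out each library in turn gave Adcy5 -0.016 to 0.045, Adcy6 -0.015 to 0.10, Adcy1 -0.36 to -0.13, Adcy2 0.0058 to 0.07, Adcy3 0.08 to 0.15, Adcy7 0.02 to 0.18, Adcy8 0.10 to 0.25 and Adcy9 -0.18 to -0.03. The extremes came without saline-sired 6 and morphine-sired 4 for Adcy2, saline-sired 6 and 3 for Adcy7, and saline-sired 1 and 3 for Adcy9. The number of genes passing was then 0 to 1: an unnamed locus on chromosome 1 passed without saline-sired 4 (164916918 to 164921827, log2 difference -1.60, adjusted p 0.0398) and another without saline-sired 6 (273402617 to 273402850, log2 difference 1.32, adjusted p 0.0417). These genes are named after their values were seen. Other normalizations, pseudocounts, limma-voom, FPKM and marker scores as terms turned none of the 8 genes. The oligodendrocyte score as a term brought Adcy2 to 0.02, Adcy3 to 0.06, Adcy7 to 0.05 and Adcy9 to -0.02, and the serotonergic score brought Adcy5 to 0.01, Adcy8 to 0.08 and Adcy9 to -0.02. An exact permutation test gave a two-sided p of 0.102 to 0.760 for the 8 genes, where the smallest the design allows is 0.00216. The cause of the reversals without single or 3 libraries was not tested. Single assembled transcripts rest on how StringTie divided shared reads.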
